A study of Mus musculus with 12 samples.

Results

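The 8 genes described here are ones that lymphocytes with cytotoxic or type 1 effector function express: Ifng, Tbx21, Gzma, Gzmb, Gzmk, Prf1, Nkg7 and Ccl5. They were taken by symbol from the 32285 genes of the deposited tables, 1 row for each symbol, and followed over 48135 leukocytes among 89054 cells in 12 single-cell RNA libraries of mouse lymph node. All mice were C57BL/6 animals of 7 to 10 weeks with the genotype ATG12 fl/fl x CDH5 CreER, labelled Cre-negative or Cre-positive, and all received tamoxifen 5 times. Cdh5 drives the inducible Cre in endothelial cells, and the Atg12 level in 3′ reads is no check of the deletion. Skin of the abdomen was painted with 4% oxazolone, a contact sensitiser, with the nodes collected after 3 or 7 days, while vehicle mice received the solvent alone. The sample labels give no collection day for vehicle mice, and the same vehicle libraries were compared with both days. The design text calls day 3 the peak of inflammation and day 7 its resolution. Each combination of 3 treatments and 2 labels gave 1 library of cells held on CD45 beads (the CD45 libraries) and 1 of cells left by that depletion (the CD31 libraries), and the labels do not say whether both came from the same mice or how many mice were pooled. No combination has a replicate.

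Cytotoxic lymphocytes kill a target by releasing granules. Perforin, the product of Prf1, opens the target membrane, and the granzymes, serine proteases encoded by Gzma, Gzmb and Gzmk, then enter the target cell. Nkg7 encodes a membrane protein of the cytotoxic granule. Tbx21 encodes T-bet, the transcription factor that directs type 1 differentiation, and Ifng encodes interferon gamma, the cytokine of that programme. Ccl5 encodes a chemokine that attracts T cells and monocytes. In resting nodes natural killer (NK) cells and memory CD8 T cells carry much of this equipment ready-made, whereas naive T cells gain most of it after priming.

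On build GRCm38 the members lie on 5 chromosomes. Gzma (chr13:113093825-113100981, minus strand) and Gzmk (chr13:113171608-113225908, minus strand) are 70.6 kb apart. Prf1 (chr10:61297833-61304680) and Ifng (chr10:118441046-118445892) are both on the plus strand of chromosome 10. Gzmb lies at chr14:56258838-56262260 and Nkg7 at chr7:43437073-43438249. Ccl5 (chr11:83525778-83530518) and Tbx21 (chr11:97098071-97115331) share chromosome 11. Promoter windows of 300 bases, from 250 before the start to 50 after it, were taken from RefSeq on GRCm38.p6 and matched 7 of the 8 members. Windows are shown for Gzmb, Gzma and Ifng, whose CD8 T cell level was highest in both day 3 libraries, and for Prf1, whose level was not. Capitals mark matches to a T-box motif (AGGTGTG), a Runx motif (TGTGGT), a STAT motif (TTCNNNGAA) and an AP-1 motif (TGANTCA), searched on both strands.
Gzmb: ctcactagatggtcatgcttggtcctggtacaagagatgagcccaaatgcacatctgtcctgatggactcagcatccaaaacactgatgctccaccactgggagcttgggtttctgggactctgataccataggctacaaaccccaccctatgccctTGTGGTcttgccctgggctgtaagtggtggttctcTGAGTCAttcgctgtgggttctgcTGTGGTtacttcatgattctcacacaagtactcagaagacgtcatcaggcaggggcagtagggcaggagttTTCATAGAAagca
Gzma: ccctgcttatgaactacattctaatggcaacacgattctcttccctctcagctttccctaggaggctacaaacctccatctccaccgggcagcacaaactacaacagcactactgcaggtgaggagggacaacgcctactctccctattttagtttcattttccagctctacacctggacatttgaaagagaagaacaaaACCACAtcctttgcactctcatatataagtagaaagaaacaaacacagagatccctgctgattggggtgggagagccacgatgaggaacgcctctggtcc
Ifng: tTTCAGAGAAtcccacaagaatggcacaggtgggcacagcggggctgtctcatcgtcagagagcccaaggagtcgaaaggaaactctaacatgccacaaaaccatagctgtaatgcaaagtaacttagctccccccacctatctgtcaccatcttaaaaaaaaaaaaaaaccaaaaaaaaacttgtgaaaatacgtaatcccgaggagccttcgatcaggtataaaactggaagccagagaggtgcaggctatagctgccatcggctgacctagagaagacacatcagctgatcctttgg
Prf1: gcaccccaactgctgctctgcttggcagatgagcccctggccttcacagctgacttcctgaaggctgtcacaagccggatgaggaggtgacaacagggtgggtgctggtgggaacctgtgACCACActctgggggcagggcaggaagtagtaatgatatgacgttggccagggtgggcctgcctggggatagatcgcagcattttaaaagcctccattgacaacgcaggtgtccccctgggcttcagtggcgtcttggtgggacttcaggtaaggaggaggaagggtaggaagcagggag
The windows lie at chr14:56262285-56262584 (minus strand) for Gzmb, chr13:113100932-113101231 (minus strand) for Gzma, chr10:118440796-118441095 for Ifng and chr10:61297586-61297885 for Prf1. Distances are from the RefSeq start, which can differ from the end of the GENCODE gene span given above. The Gzmb window lies wholly before that span, and the Gzmk window (chr13:113180916-113181215) lies inside its span. The Gzmb window holds 2 Runx matches, 93 and 34 bases before the start, an AP-1 match 58 bases before it and a STAT match 37 bases after it. Gzma and Prf1 each hold 1 Runx match on the opposite strand (printed as ACCACA), 50 and 130 bases before the start. Ifng has 1 STAT match 249 bases before the start. Nkg7, not printed, has a T-box match 14, a Runx match 83 and a STAT match 220 bases before its start. No match was found in the windows of Tbx21 and Gzmk. Over 32851 promoter windows of the same length, 5.84% held the T-box motif, 16.8% the Runx motif, 8.30% the STAT motif and 7.81% the AP-1 motif, and the matches are a description of letters only.

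The libraries held 36724887 to 76186801 unique molecular identifiers (UMIs, tags that each mark 1 captured molecule). The cell classes are clusters named from marker genes, without use of the 8 members, and each name below stands for a class that resembles it. The 6 CD45 libraries held 6050 CD8 T-like cells, 5144 conventional CD4 T-like, 568 γδ T-like and 414 NK-like cells, with medians of 6167, 4522, 5108 and 4614 UMIs per cell. Some clusters mixed CD4 and CD8 T cells, dividing cells among them, and cells in them were assigned one by one from Cd4, Cd8a and Cd8b1. In these clusters 652 cells of the CD45 and 320 of the CD31 libraries stayed unassigned and count in neither class. The unassigned cells held 5.44% of Ifng and 3.16% of Gzmb leukocyte UMIs in the CD45 libraries, and 11.8% and 0.432% in the CD31 libraries. The assigned cells made up 3.83% to 14.2% of the CD8 class and 8.03% to 28.3% of the CD4 class per CD45 library. Libraries shared 7 to 31 barcodes in pairs, at most 0.38% of the smaller one. The vehicle Cre-negative and day 7 Cre-positive libraries stood apart in holding 233 and 263 germinal centre B-like cells in the CD45 fraction, against 11 to 26 in the other 4, and 144 and 151 plasma-like cells against 3 to 29. In the CD31 fraction the same combinations held 127 and 44 germinal centre B-like cells against 5 to 42 in the others, and 150 and 42 plasma-like cells against 0 to 25. The treatment and Cre labels are taken as given. Whether any of them was exchanged was not tested, and each comparison of treatments or labels below rests on them. Levels are counts-per-million values (CPM, the UMIs of a gene over all UMIs of the class), with exact 95% Poisson intervals that cover counting error only. Where 6 values follow each other, the order is vehicle, day 3 and day 7, and each pair gives the Cre-negative library first.

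NK cells were 1.23% of CD45-library leukocytes and CD8 T cells 18%, and summed over the 6 libraries they held most leukocyte UMIs of every member but Ccl5. NK cells held 77.7% of all Gzma UMIs in leukocytes, 38.2% of Ifng, 25.2% of Prf1, 20.9% of Tbx21, 17.7% of Ccl5, 16.8% of Gzmb, 13.8% of Nkg7 and 4.9% of Gzmk. CD8 T cells held 72.1% of Nkg7, 73% of Gzmk, 51.8% of Prf1, 44.5% of Tbx21, 41.9% of Gzmb, 32.8% of Ifng, 16.3% of Gzma and 14.6% of Ccl5. A pair of genes had a further main source. Regulatory T-like cells held 34% of Gzmb, and migratory dendritic-like cells, 2.83% of leukocytes, held 52% of Ccl5. For some genes these sums hide a wide spread between libraries. The CD8 share of Gzmb ran from 4.13% to 62.3%, the NK share from 8.65% to 62.1% and the regulatory T share from 19.6% to 73.1%, and the day 3 libraries gave 1341 and 653 of the 2092 Gzmb UMIs in CD8 T cells. The NK share of Gzma ran from 63.2% to 98.4% and the CD8 share from 0.876% to 25.3%, while the CD8 share of Nkg7 stayed between 68.2% and 75.6%. Gzmk, with 204 UMIs in all, had a CD8 share of 28.6% to 86.9% and a CD4 share of up to 61.9%. In the CD31 libraries NK cells held 82.8% of Gzma, CD8 T cells 71% of Nkg7, regulatory T cells 32.2% of Gzmb (7.69% to 81% by library, with NK cells at 1.82% to 80%) and migratory dendritic cells 56.7% of Ccl5. Other shares differed more there, with CD8 T cells at 8.43% of Gzma and 55.8% of Gzmk. Ifng was split there at 30.6% for CD8 T cells and 29.8% for NK cells, and mast and basophil-like cells, which the CD45 libraries lacked as a class, held 7.54% of Gzmb.

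**Figure D1:**
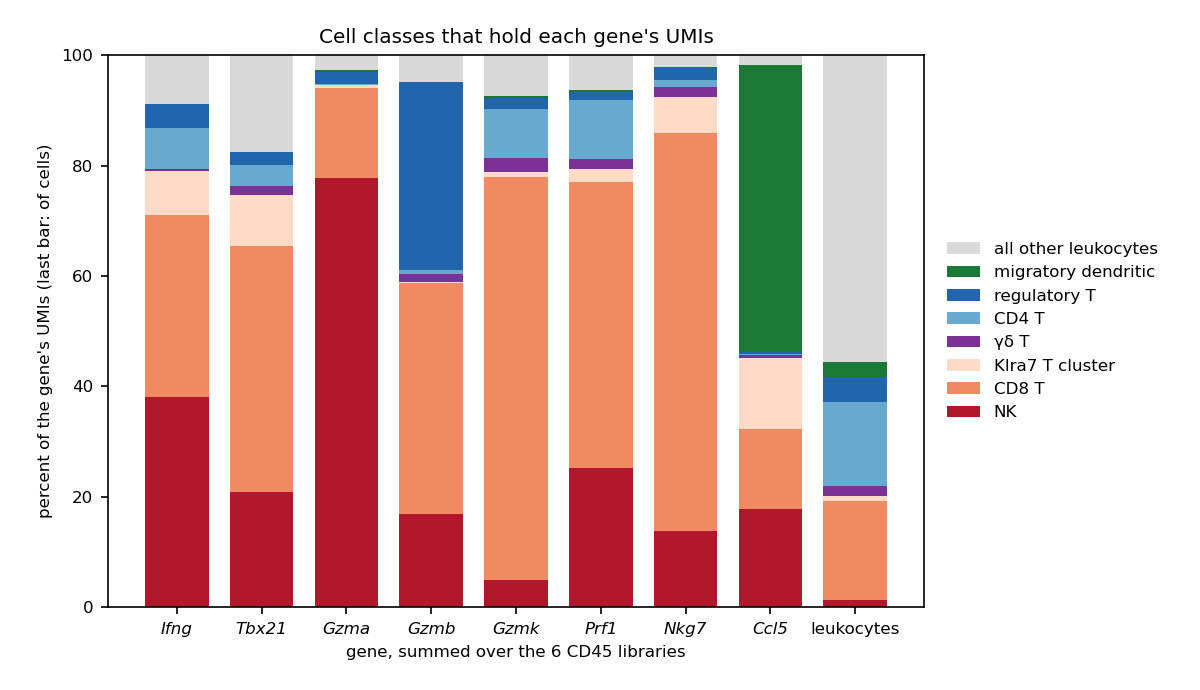
Stacked bars give, for each gene, the percent of its leukocyte UMIs held by each cell class, summed over the 6 CD45 libraries, and the last bar gives the percent of leukocytes in each class. NK cells are 1.23% of cells and hold 77.7% of Gzma UMIs, and migratory dendritic cells hold 52% of Ccl5 UMIs.

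The NK class had the top level of 7 of the 8 members among the 4 classes compared, in each of the 6 CD45 libraries. Gzma stood at 6691, 5703, 11610, 6111, 5178 and 5654 CPM in NK cells, against 1.41 to 166 in CD8 T cells, 0 to 7.08 in γδ T cells and 0.47 to 2.24 in CD4 T cells. Ccl5 stood at 14690, 9997, 13910, 9386, 11850 and 11440 CPM in NK cells and at 367 to 682 in CD8 T cells. Prf1 was at 508, 390, 569, 426, 373 and 369 CPM in NK cells and 34 to 49.5 in CD8 T cells, and the classes did not overlap. Ifng ranged from 266 to 810 CPM, Gzmb from 242 to 575, Tbx21 from 226 to 255 and Nkg7 from 1725 to 2497 in NK cells. Gzmk was the exception, with only 1 to 3 UMIs in the NK cells of each library. After each cell was thinned to 1000 UMIs, 65.4% to 93% of NK cells still showed Gzma and 90.4% to 97.7% showed Ccl5 (unthinned, 69.2% to 94.4% and 94.7% to 98.8%).

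By edgeR's quasi-likelihood test, in 1 fit of the 4 classes with library as a block, 7 of 8 members were higher in NK than in CD8 T cells. There, 32.2% of the 10440 genes tested were called, and the members' median was 3.71 on the log2 scale against -0.02 over all genes. The differences in log2 were 7.52 (SE 0.58) for Gzma, 4.50 (SE 0.29) for Ccl5, 4.48 (SE 0.29) for Ifng, 4.25 (SE 0.56) for Gzmb, 3.17 (SE 0.17) for Prf1, 3.13 (SE 0.16) for Tbx21 and 1.83 (SE 0.12) for Nkg7. The adjusted p of these 7 genes was at most 9.92e-07, while Gzmk differed by 0.57 (SE 0.95, adjusted p = 0.699). Of 14 other genes of the cytolytic granule and death ligand list that were tested, 13 were higher in NK cells, among them Fasl (4.02), which encodes the ligand of the death receptor Fas, and Serpinb9 (3.89), an inhibitor of granzyme B. Of 21 type 1 genes 15 were higher and 5 lower, with Zeb2 at 5.56, a factor that acts with T-bet in terminal effector cells, and Ifngr2, a chain of the interferon gamma receptor, at -5.22. The chemokine genes Ccl3 (5.41), Ccl4 (4.46) and Xcl1 (3.76) were higher too.

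In the same fit of the 4 classes, CD8 T cells were higher than CD4 T cells for 8 of 8 members, where 18.2% of 10440 genes were called in either direction. The log2 differences were 6.26 (SE 0.35) for Ccl5, 5.30 (SE 0.14) for Nkg7, 5.18 (SE 0.76) for Gzma, 4.54 (SE 0.85) for Gzmb, 3.08 (SE 0.20) for Tbx21, 2.31 (SE 0.64) for Gzmk, 1.75 (SE 0.17) for Prf1 and 1.54 (SE 0.33) for Ifng. The weakest calls were Gzmk (adjusted p = 0.0115) and Ifng (adjusted p = 0.00108). Gzmk missed the threshold with DESeq2 (2.35, adjusted p = 0.0554), and Ifng did when cells were gated one by one on receptor genes (0.72, adjusted p = 0.211). Single libraries did not all keep the order of the fit. In day 7 Cre-negative, Ifng was at 15.6 CPM in CD4 and 8.9 in CD8 T cells, and Gzmk at 3.07 and 0.85. In vehicle Cre-negative, Gzmb was at 4.72 and 4.05 CPM. In CD8 T cells Gzmb was at 157 and 88.8 CPM at day 3 against 1.41 to 4.94 in the other libraries. Gzma was at 166 and 116 CPM against 1.41 to 89.9. CD4 T cells of the CD45 libraries held only 43 Gzma, 41 Gzmb and 18 Gzmk UMIs, and the low-count filter covered the 4 classes together. In CD4 T cells several members sat at the level of B-like cells, a class that should lack them. Gzma was at 0.47 to 2.24 CPM in CD4 T cells and 0.19 to 1.75 in B cells, and Ccl5 at 2.3 to 14.8 against 3.8 to 11.4. By contrast Nkg7 was at 10.1 to 17.1 CPM against 0.66 to 1.61, and Prf1 at 9.21 to 20.5 against 1.64 to 3.63. Unthinned, 1.2% to 2.67% of CD4 T cells (median 4522 UMIs) and 0.256% to 0.4% of B cells (median 3251 UMIs) had an Nkg7 UMI.

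Related genes divided the CD8 and CD4 classes further. Of 14 cytolytic genes 7 were higher in CD8 T cells, led by Gzmm (5.38), a further granzyme, and Ctsw (3.11), a protease of cytotoxic cells, and 3 were lower: Stx11 (-1.77), Fasl (-0.62) and Srgn (-0.24). Of 21 type 1 genes 13 were higher, with Ly6c2, a surface protein of memory CD8 T cells, at 7.45 and Eomes, a T-box factor related to T-bet, at 4.55. Bhlhe40 (-1.005) and Ifngr2 (-0.53) were lower. Il4 (-3.99), which encodes a cytokine of type 2 responses, was lower in CD8 T cells.

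**Figure D2:**
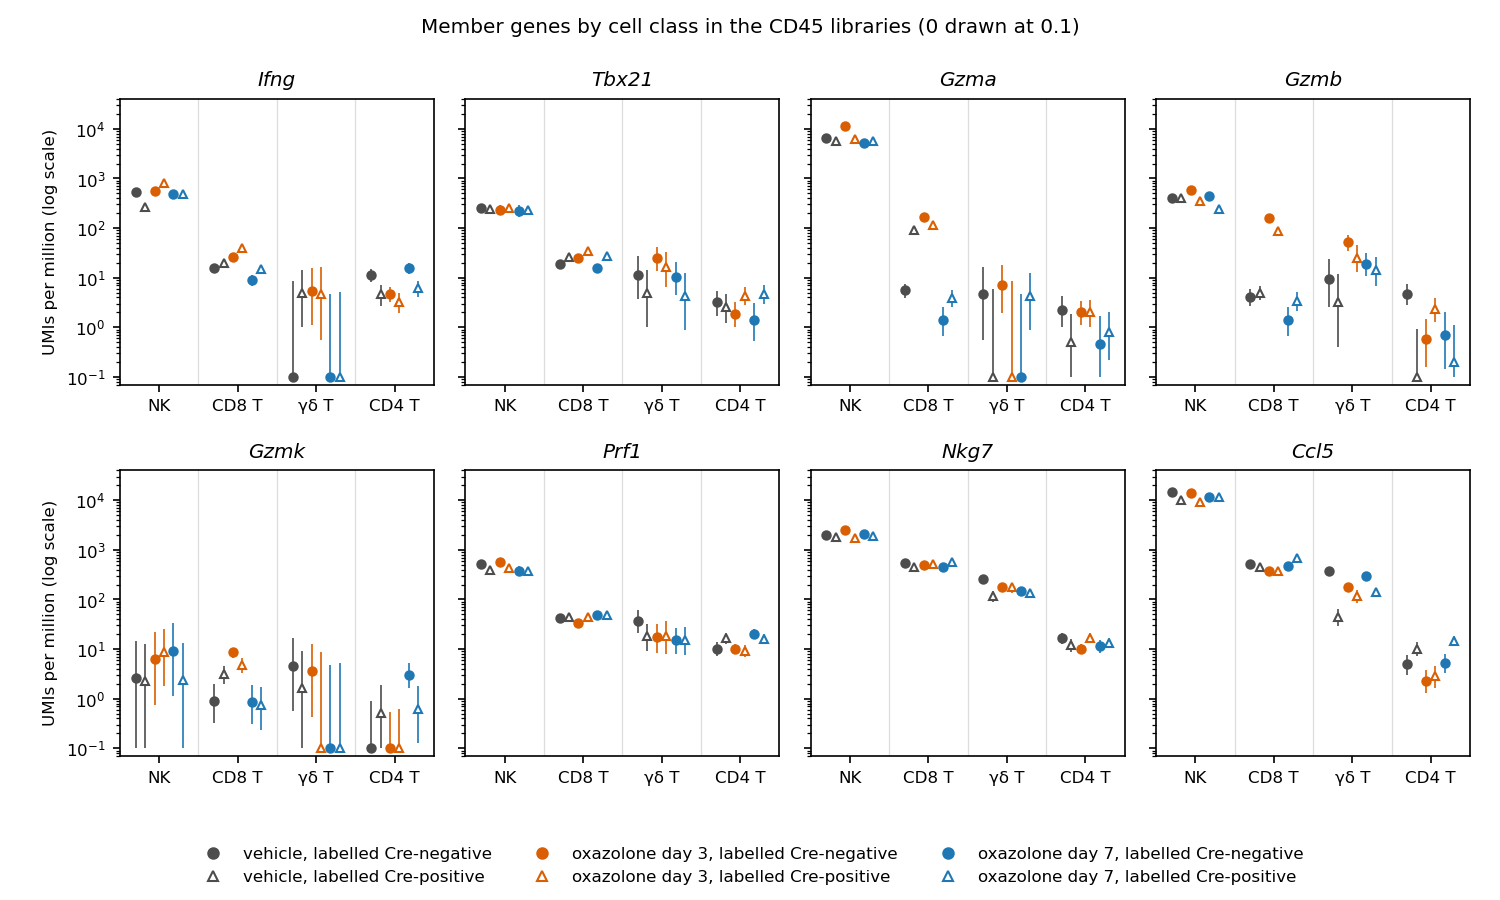
Each panel gives 1 gene, with the 4 cell classes on the x axis and CPM on a log y axis. Points are single CD45 libraries (filled, labelled Cre-negative, open, labelled Cre-positive) with exact 95% Poisson intervals, and 0 is drawn at 0.1. NK cells lie above the other classes for every gene but Gzmk, whose NK level rests on 1 to 3 UMIs per library.

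γδ T cells, as clusters, lay below CD8 T cells for 6 of 8 members (28.9% of 10440 genes were called in either direction). The log2 differences were -4.32 (SE 1.17) for Gzma, -3.34 (SE 0.78) for Ifng, -1.85 (SE 0.13) for Nkg7, -1.61 (SE 0.29) for Ccl5, -1.41 (SE 0.25) for Prf1 and -1.30 (SE 0.27) for Tbx21. Gzmb (-0.59, adjusted p = 0.656) and Gzmk (-1.26, adjusted p = 0.43) missed the threshold. The γδ T cells of the CD45 libraries held only 9 Gzma and 8 Ifng UMIs, too few for the fits of γδ T cells alone. In day 7 Cre-positive, Gzma was at 4.21 CPM in γδ and 3.94 in CD8 T cells. When γδ T cells were instead gated on at least 2 UMIs of γδ receptor genes, Ccl5 turned to 2.11 (adjusted p = 5.4e-07), Tbx21 to 0.51 (adjusted p = 0.0297) and Ifng to 0.87 (adjusted p = 0.191), and Gzma moved to -0.43 (adjusted p = 0.764). Without the cells assigned one by one Gzma was at -1.63 (adjusted p = 0.0816). Only 52.9% to 65.9% of gated γδ T cells lay in the γδ clusters, against 92.3% to 95.7% for the CD8 gate.

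The 2 γδ clusters differed in their members. One had Lef1, a factor of naive T cells, among its 10 leading genes, together with Ly6c2 and the αβ receptor genes Trbc1 and Trbc2. Of the 8 γδ T marker genes, 5 reached 20 CPM in it. The other had Il23r, the interleukin 23 receptor, among its 10 leading genes. The Lef1 cluster also held Cd8b1 at 142 CPM. In it Nkg7 was at 475 to 677 CPM and Ccl5 at 156 to 945, while in the Il23r cluster they were at 18.2 to 56.7 and 2.72 to 191. The 191 was in day 7 Cre-negative, where 107 of 116 Ccl5 UMIs lay in 1 cell. Gzmb ran the other way, with 66 UMIs in the 399 Il23r-cluster cells and 5 in the 169 Lef1-cluster cells. Type 17 cytokine genes were high in the class as a whole. Il17a was at 71.5 to 493 CPM, with no UMI in the CD8 T cells of any CD45 library, and Il17f at 16.4 to 37 CPM against 0 to 0.272. A T cell cluster led by Ly6c2 and Klra7, which stayed unnamed, held Trdc, the constant gene of the γδ receptor, at 192.5 CPM and Cd8a at 93.3. Its Ccl5 was at 9287, 7362, 7693, 6755, 8895 and 8945 CPM, and its Nkg7 at 826 to 942. Ifng in that cluster was at 64, 61.2, 202, 124, 87.5 and 99.2 CPM, highest in both day 3 libraries.

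**Figure D3:**
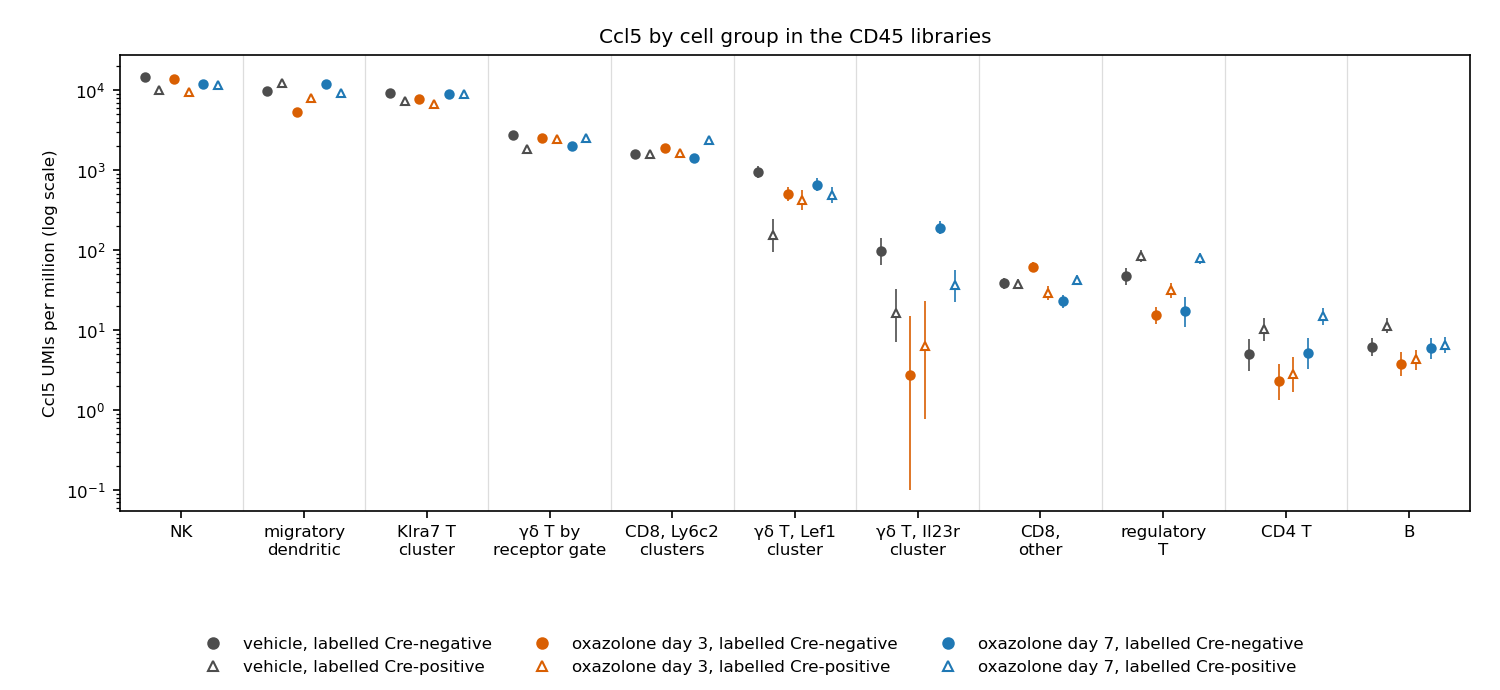
Ccl5 CPM on a log y axis in 11 cell groups of the 6 CD45 libraries, with exact 95% Poisson intervals. NK cells, migratory dendritic cells and the Klra7 T cluster lie between 5286 and 14690 CPM in all 6 libraries, and γδ T cells chosen by receptor gate lie above both γδ clusters.

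In CD8 T cells, Gzmb was the member with the largest called change at day 3. Treatment and label were fitted together over the 6 CD45 libraries of a class, which leaves 2 residual degrees of freedom, so any interaction counts as error. Its level was 4.05, 4.94, 157, 88.8, 1.41 and 3.36 CPM, from 27, 38, 1341, 653, 10 and 23 UMIs. Both day 3 libraries lay above all 4 others, in the CD31 libraries too, with 7.05, 2.38, 151, 212, 0.938 and 1.85 CPM. Against vehicle the fitted log2 change was 4.66 (SE 0.30, adjusted p = 8.97e-05, edgeR), and it lay between 3.95 and 5.42, past the threshold each time, when 1 library was left out. Within the labels the change was 5.28 in Cre-negative (95% counting interval 4.73 to 5.88) and 4.17 in Cre-positive (3.70 to 4.68) libraries. The share of CD8 T cells with a Gzmb UMI was 0.929% and 0.935% at vehicle and 5.11% and 4.92% at day 3, and after thinning 0.186%, 0.208%, 2.12% and 1.94%. In B cells it was at most 0.352%.

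The Gzmb signal of day 3 lay in few cells. Of the mixed clusters, 1 had the division marker Mki67 at 418 CPM, a level topped among T and NK clusters only by a regulatory T cluster at 475, and is called the Mki67 cluster here. Its CD8 T cells, 144 at day 3 in the CD45 libraries, held 1978 Gzmb UMIs in 74 cells, which was 99.2% of the class's Gzmb at that day. In the CD31 libraries 114 such cells held 95.4%. At vehicle the cluster held 30 CD8 T cells and 35 Gzmb UMIs, and at day 7 it held 23 cells and 8 UMIs. Within that cluster Gzmb was at 26.8, 113, 434.5, 306, 0 and 24.4 CPM, so its level per UMI was higher at day 3 as well as its number of cells. The CD8 T cells of that cluster had a median of 26781 UMIs in the CD45 libraries. Since it held nearly all day 3 Gzmb UMIs, leaving it out had to end the call. The fitted Gzmb change was then -0.57 (SE 0.60), which restates that count and is no separate test. When all cells assigned one by one were left out, Gzmb no longer had enough counts to be tested. Both ways of leaving out cells were chosen after seeing the data.

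**Figure D4:**
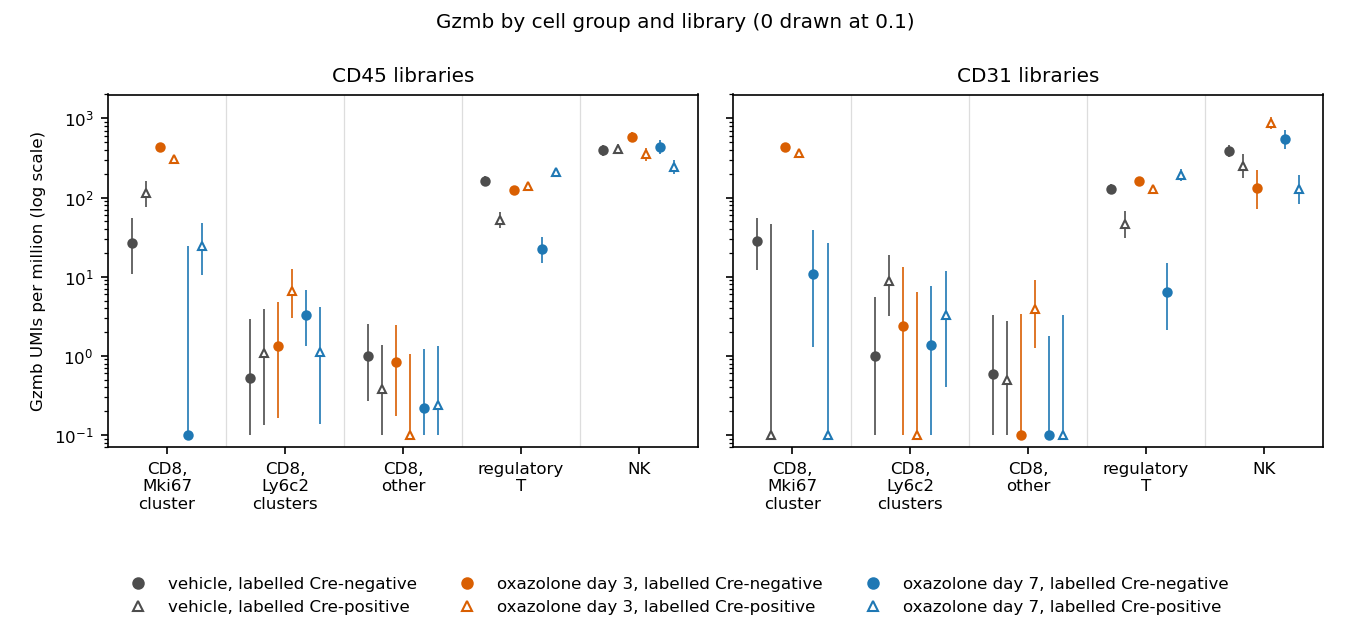
Gzmb CPM on a log y axis in CD8 T cells of the Mki67 cluster, of the Ly6c2 clusters and of the other unmixed clusters, in regulatory T cells and in NK cells, CD45 libraries on the left and CD31 libraries on the right, with exact 95% Poisson intervals and 0 drawn at 0.1. The day 3 Mki67-cluster CD8 T cells lie between 306 and 435 CPM in all 4 day 3 libraries. CD8 T cells of the Ly6c2 clusters and of the other unmixed clusters stay under 10. Those of the other mixed clusters belong to neither group.

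Ifng also rose in CD8 T cells at day 3, by less. It was at 15.9, 19.8, 25.9, 40.4, 8.9 and 15 CPM, and in the CD31 libraries at 23.2, 6.47, 38.2, 43.1, 13.8 and 13.9. Both day 3 libraries were above all others in each fraction. The fitted log2 change was 0.82 (SE 0.15, adjusted p = 0.00652). It missed the threshold with DESeq2 (0.82, adjusted p = 0.0547), without either day 3 library (0.76, adjusted p = 0.067 without Cre-positive, and 0.87, adjusted p = 0.0703 without Cre-negative), without vehicle Cre-positive (0.64, adjusted p = 0.127), without the Mki67 cluster (0.33, adjusted p = 0.813) and without the cells assigned one by one (0.23, adjusted p = 0.855). Of the day 3 Ifng UMIs in CD8 T cells, 61% came from 50 cells of the Mki67 cluster in the CD45 libraries and 66.1% from 45 cells in the CD31 libraries. The Ly6c2 clusters are CD8 clusters with Ly6c2 among their 10 leading genes, and were not scored for memory markers. Ifng was at 23.3 to 50.8 CPM in them (33.1 pooled), against 0.44 to 3.22 in the other unmixed CD8 clusters. In the CD45 libraries CD8 T cells of all mixed clusters held 551 of 942 Ifng UMIs, at 64.4 CPM pooled. The Mki67 cluster held 373 of these, at 60.6 CPM pooled.

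For Gzma and Gzmk, the day 3 call in CD8 T cells changed with 1 cell, and also with the libraries used. Gzma was at 5.55, 89.9, 166, 116, 1.41 and 3.94 CPM, with 37, 692, 1419, 852, 10 and 27 UMIs. Of the 692 UMIs in vehicle Cre-positive, 679 lay in a single cell with 22005 UMIs in all, and without that cell the level there was 1.69 CPM. The fitted day 3 change was 2.02 (SE 0.73, adjusted p = 0.101) with the cell and 5.26 (SE 0.34, adjusted p = 5.84e-05) without it. For Gzmk, at 0.9, 3.12, 8.54, 4.76, 0.85 and 0.73 CPM, the change was 1.62 (SE 0.51, adjusted p = 0.0657) with the cell, which held 12 of 24 Gzmk UMIs there, and 2.30 (SE 0.43, adjusted p = 0.00756) without it. Leaving the cell out was chosen after its counts had been seen. Single libraries and the mixed clusters also decided these calls. Gzma was at 4.72 (adjusted p = 8.74e-05) without vehicle Cre-positive, 4.53 (0.0012) without day 3 Cre-positive, 1.97 without either day 7 library (0.0266 and 0.0205), 2.48 (0.0386) without the cells assigned one by one, 0.46 (0.425) without vehicle Cre-negative and 0.39 (0.557) without day 3 Cre-negative. Gzmk passed without vehicle Cre-positive (3.13, adjusted p = 0.00837), day 3 Cre-positive (2.66, 0.0275) or either day 7 library (1.64, 0.0219 and 0.0188). In the CD31 libraries Gzma was at 11.2, 27.2, 71.9, 83.3, 0.625 and 6.93 CPM, again with both day 3 libraries on top, and over all 12 libraries the change was 2.02 (SE 0.44, adjusted p = 0.00259). That fit counts both fractions of a combination as separate samples, so its p is too small if they came from the same mice. With both fractions summed into 1 sample, an alternative chosen after seeing the data, Gzma was at 2.10 (SE 0.68, adjusted p = 0.0634) and Gzmk at 1.91 (SE 0.43, adjusted p = 0.0155). CD8 T cells of the Mki67 cluster held 91.7% of day 3 Gzma and 89.8% of day 3 Gzmk in the CD45 libraries.

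The other 4 members were not called in CD8 T cells at day 3. Prf1 was at 43.2, 43.7, 34, 44.6, 48.5 and 49.5 CPM (log2 -0.21, SE 0.14), and Nkg7 at 542, 447, 506, 519, 451 and 563 (-0.01, SE 0.12). Tbx21 was at 19.3, 25.6, 24.6, 35.1, 15.7 and 27.5 CPM (0.35, SE 0.14, adjusted p = 0.143). Ccl5 was at 513, 454, 367, 369, 475 and 682 CPM (-0.46, SE 0.14, adjusted p = 0.062). The groups of these 4 genes overlapped except for Ccl5, whose day 3 libraries were below all others. In the Mki67 cluster Prf1 was at 16.2 to 34.5 CPM, below the 57.7 to 71.5 of the Ly6c2 clusters and the 38.8 to 50.7 of the other unmixed CD8 clusters. Nkg7 was the member spread over the most CD8 T cells, with a UMI in 79.2% to 88.5% of them (33.1% to 39.1% after thinning), whereas Ccl5 had one in 17.3% to 22.9%. Ccl5 within CD8 T cells lay mainly in the Ly6c2 clusters, at 1398 to 2386 CPM against 22.9 to 61.3 in the other unmixed clusters.

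**Figure D5:**
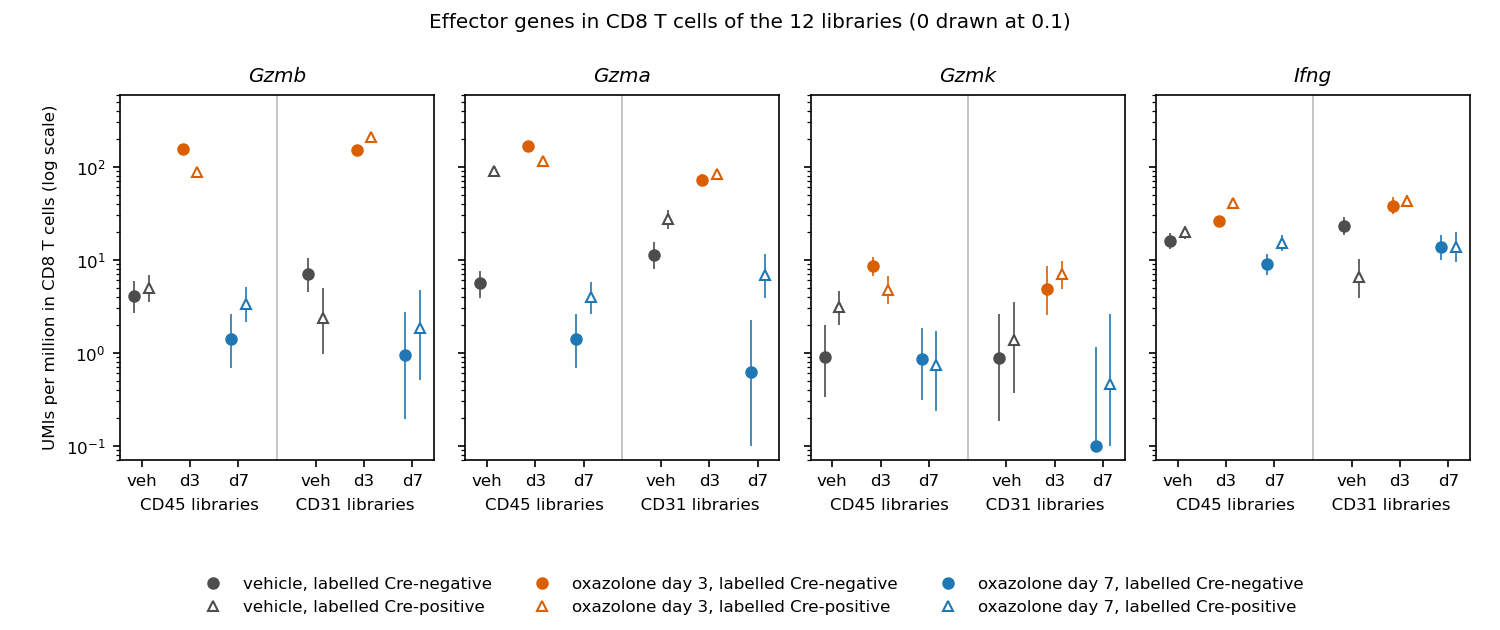
CPM (log y axis) of Gzmb, Gzma, Gzmk and Ifng in CD8 T cells of each of the 12 libraries by treatment and sorted fraction, with exact 95% Poisson intervals and 0 drawn at 0.1. Both day 3 libraries lie on top for each gene in each fraction, and the vehicle Cre-positive Gzma value of 89.9 rests on a single cell with 679 UMIs.

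In this comparison 13.4% of 11157 genes were called, 1090 up and 408 down, so the 2 of 8 members called are to be read against that share. The members' median log2 change was 0.58, against -0.03 over all genes. All 6 cell cycle genes of the list rose (median 2.66, Mki67 by 2.73). Of 14 other cytolytic genes 3 rose: Stx11 (1.93), which serves granule fusion, and the granzyme inhibitor genes Serpinb6b (1.38) and Serpinb9 (1.03). Ctsw fell by 0.42. Of 19 type 1 genes Bhlhe40 (2.10), Prdm1 (1.64), Il12rb2 (1.36) and Runx3 (0.51) rose and Ly6c2 fell by 0.93. Il12rb2 encodes a chain of the interleukin 12 receptor, and Runx3 and Prdm1 encode transcription factors of effector CD8 T cells. Of 9 genes of naive and recirculating cells 6 fell, by 0.34 (Foxp1) to 0.51 (Bach2). The 5 CD8 T marker genes that name the class summed to 2348 and 2328 CPM at day 3, below the 2763 to 3022 of the other 4 libraries. The 5 plasma cell markers, Prdm1 among them, summed to 37.3 and 36.6 CPM, above their 19.5 to 28.5. Both orders held in the CD31 libraries. The 5 germinal centre B markers summed to 46.8 and 51.15 CPM, above their 36.4 to 42, but overlapped in the CD31 libraries. The part of these sums in the day 3 changes was not tested. Without the Mki67 cluster 2 genes were called in place of 1498, none of them in these lists, and the median change of the 4 cell cycle genes still tested was 0.55. Without all cells assigned one by one 13 genes were called. The count was 280 without day 3 Cre-negative, 618 without vehicle Cre-positive, 669 without vehicle Cre-negative, and 2034 and 2082 without day 7 Cre-negative and Cre-positive.

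At day 7 no member was called in CD8 T cells, where 0% of 11157 genes were called (347 at an unadjusted p under 0.05, and 1 gene with DESeq2). Gzma was at -3.91 (SE 1.02) and Gzmk at -1.34 (SE 0.71) in log2 against vehicle, both with adjusted p = 0.995, and the vehicle Cre-positive value includes the single cell described above. Without vehicle Cre-negative Gzma was called, at -5.16 (adjusted p = 3.7e-05), and without vehicle Cre-positive Gzmk turned to 0.19. The other 6 members lay between -0.90 for Gzmb and 0.28 for Ccl5. Gzmb, Gzma and Gzmk at day 7 each lay below both day 3 libraries, at 1.41 and 3.36, 1.41 and 3.94, and 0.85 and 0.73 CPM. Between labels 0.161% of genes were called in CD8 T cells and no member was. Gzma was at 1.06 (adjusted p = 0.464), and turned to -0.55 (adjusted p = 0.332) without the single cell and -0.31 (adjusted p = 0.687) without the Mki67 cluster. It was at 3.52 (adjusted p = 0.0371) without day 3 Cre-positive and turned to -0.33 without vehicle Cre-positive and -0.34 without vehicle Cre-negative. Tbx21 (0.48, SE 0.12, adjusted p = 0.117) and Ifng (0.47, SE 0.13, adjusted p = 0.132) were higher in the Cre-positive library within all 3 treatments of the CD45 fraction. In the CD31 fraction that order did not hold at vehicle, with Ifng at 23.2 CPM in Cre-negative and 6.47 in Cre-positive. The transcript Gm42418 (1.12) and the mitochondrial mt-Co3 (0.72) were among the genes called between labels in CD8 T cells, and their part in these differences was not tested.

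In CD4 T cells only 5 members had enough counts for the fit, and at day 3 1 of them was called, where 9.58% of 10496 genes were. Ccl5 was at 4.97, 10.2, 2.3, 2.85, 5.19 and 14.8 CPM, from 20, 40, 16, 17, 22 and 73 UMIs, with both day 3 libraries lowest. In barcodes of at most 100 UMIs Ccl5 was lowest in both day 3 CD45 libraries too, at 432 and 457 CPM against 717 to 918. In the CD31 libraries day 3 Cre-positive (288.5) lay above vehicle Cre-positive (277). The part of such RNA was not tested. The fitted Ccl5 change in CD4 T cells was -1.54 (SE 0.39, adjusted p = 0.0485), at levels within or near the range of B cells. It was past the threshold neither with DESeq2 (adjusted p = 0.216), nor over all 12 libraries (0.121), nor with both fractions summed (-1.72, 0.0763), nor under the receptor gate (0.145), nor without the Mki67 cluster (-1.19, 0.985) or all cells assigned one by one (-0.50, 0.874), nor without day 3 Cre-positive (-0.99, 0.491), day 3 Cre-negative (-2.03, 0.3), vehicle Cre-positive (-1.47, 0.18) or day 7 Cre-positive (-1.56, 0.0543). The count of called genes was 1005, and it was 0 without either day 3 library, 535 without vehicle Cre-positive and 1811 without vehicle Cre-negative. Ifng was at 11.4, 4.61, 4.74, 3.18, 15.6 and 6.07 CPM (-0.99, SE 0.33, adjusted p = 0.112), and 36 of the 66 UMIs of day 7 Cre-negative lay in 1 cell. Tbx21, Prf1 and Nkg7 lay between -0.50 and -0.05. Gzmb, Gzma and Gzmk, not tested, had 0 to 19 UMIs per library. Gzmb's 19 UMIs in vehicle Cre-negative came from 2 cells, 17 of them from 1 cell, and in vehicle Cre-positive it had none among 708 cells, which allows a share of cells with a UMI of up to 0.424%.

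Beside these, all 6 cell cycle genes rose in CD4 T cells at day 3 (median 2.5), as in CD8 T cells of the same libraries. Of 17 type 1 genes none rose and Ly6c2 (-2.38), Il18r1 (-0.91) and Id2 (-0.61) fell. The 5 conventional CD4 T marker genes summed to 1784 and 1841 CPM at day 3, below the 2105 to 2409 of the other 4 libraries, and lowest at day 3 in the CD31 libraries too. Their part in the list changes was not tested. Among 13 cytolytic genes Serpinb6b rose by 1.498 and Ctsw fell by 1.07. Without the Mki67 cluster 0 genes were called in CD4 T cells at day 3 (427 of 10154 at an unadjusted p under 0.05), and the 4 cell cycle genes still tested had a median change of 1.14. Without all cells assigned one by one 2 genes were called, none of them in these lists. At day 7, 0% of genes were called (165 at an unadjusted p under 0.05, and 0 with DESeq2) and the 5 members lay between -0.22 and 0.45. Between labels 0.00953% of genes, 1 gene, was called. Ifng was at -1.18 (SE 0.26, adjusted p = 0.544) there, lower in the Cre-positive library of each of the 3 treatments, while the other 4 lay between -0.05 and 0.95.

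γδ T cells had 59 to 126 cells per CD45 library and 4 members with enough counts. Gzmb stood at 9.26, 3.28, 51.3, 25.6, 19.3 and 14 CPM, from only 4, 2, 29, 11, 15 and 10 UMIs, and both vehicle libraries were lowest. With so few vehicle UMIs, Gzmb passed the low-count filter only through the oxazolone libraries, where it was high. The day 3 change was 2.54 (SE 0.59, adjusted p = 0.11), where 0.0445% of 6739 genes and no member were called. It passed the threshold without the low-count filter (2.55, adjusted p = 0.00727), under the receptor gate (3.35, adjusted p = 0.0481) and without either day 7 library (2.52, adjusted p = 0.0128 and 0.00905). These alternatives draw on the same few counts and are no separate test. In the CD31 libraries, with Gzmb at 31.2, 16.4, 19, 39.3, 0 and 3.52 CPM, day 3 and vehicle overlapped. At day 7 Gzmb was at 1.47 (SE 0.64, adjusted p = 0.274), and at -0.12 with both fractions summed. In the CD45 libraries 1.9% of genes were called and no member was. Among these were 4 of 6 cell cycle genes that rose, led by Ccnb2 (2.47), and Il17a (-1.42) and Il22 (-2.27), which fell. The count of 128 called genes was 0 over all 12 libraries and with both fractions summed, 21 with DESeq2 and 8 without vehicle Cre-positive, so none of these calls was made in the first pair of alternatives.

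Between labels, Ccl5 was lower in Cre-positive γδ T cells, the 1 member called where 0.89% of 6739 genes were. It was at 375, 44.3, 179, 116, 294 and 140 CPM, from 162, 27, 101, 50, 228 and 100 UMIs, lower in the Cre-positive library of each treatment. The log2 difference was -1.59 (SE 0.26, adjusted p = 0.00103). Of the 228 UMIs in day 7 Cre-negative, 107 lay in 1 cell of the Il23r cluster, without which the level there was 158 CPM, near the 140 of Cre-positive. Without that cell, left out after its counts had been seen, Ccl5 missed the threshold (-1.26, SE 0.32, adjusted p = 0.0638). It also fell short of the threshold over all 12 libraries (-0.81, adjusted p = 0.649), with both fractions summed (-0.84, adjusted p = 0.548), without the vehicle Cre-positive library (-0.95, adjusted p = 0.0908) or the vehicle Cre-negative one (-0.94, adjusted p = 0.0543), and under the receptor gate (-0.18, adjusted p = 0.67). Gated γδ T cells held Ccl5 at 2725, 1851, 2540, 2467, 1989 and 2505 CPM, with no common order of the labels. In the CD31 libraries the γδ clusters had 341, 269, 304, 222, 46.4 and 165 CPM, so the order was opposite at day 7. Among the genes called between labels in these cells were Gm42418 (6271, 8501, 2898, 6411, 3640 and 6427 CPM) and mt-Co3 (2019, 3756, 1803, 3574, 1640 and 3675), and their part in the result was not tested.

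NK cells showed no called change in any of the 7 members tested. Ifng was at 534, 266, 563, 810, 484 and 481 CPM, and its day 3 change of 0.82 (SE 0.29, adjusted p = 0.893) was the largest. It moved by 0.08 in Cre-negative and 1.61 in Cre-positive libraries. In the CD31 NK cells, at 490, 312, 384, 316, 677 and 545 CPM, both day 3 libraries lay below 3 of the other 4. Gzma in NK cells was at 0.47 (SE 0.23) at day 3, with 11610 CPM in day 3 Cre-negative and 5178 to 6691 in the other 5 libraries. The other members lay between -0.09 and 0.15 at day 3, all 7 between -0.27 and 0.35 at day 7 and between -0.54 and -0.02 for the label. With 47 to 85 NK cells per library, 0% of 5138 genes were called at day 3 (268 at an unadjusted p under 0.05) and 0% at day 7 (262), each 0 with DESeq2 as well, and 0.0195% for the label. In the NK class the 5 CD8 T marker genes summed to 85.7 to 184 CPM and the 9 NK genes to 5890 to 8399 in the CD45 libraries. In the CD31 libraries they summed to 18.2 to 365 and 5202 to 7775, and day 7 Cre-negative, the library with the highest Ifng there, had the 365. Its part in that value was not tested.

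Granule genes were found together in the same NK cells. After thinning, 31% of NK cells with Gzma showed Gzmb, against 6.12% of those without, and 42.1% against 14.3% showed Prf1. Ifng and Gzma were not tied in that way, as Gzma was found in 74.3% of NK cells with Ifng and 77% of those without. In CD8 T cells 14 of 59 cells with Gzma showed Gzmb (23.7%), against 0.484% of cells without Gzma, while Prf1 was found in 3.39% and 4.62%. These are shares over cells pooled from 6 libraries at 1 fixed depth and carry no test.

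Gzmb in regulatory T cells did not order by treatment. It was at 164, 52.3, 124.5, 138, 22.2 and 209 CPM, and in the CD31 libraries at 130, 46.5, 163, 129, 6.45 and 192. In both fractions day 7 Cre-positive was highest, day 7 Cre-negative lowest and vehicle Cre-positive next to lowest. Day 7 Cre-positive and vehicle Cre-negative are the libraries with 263 and 233 germinal centre B-like cells, and their part in this order was not tested. Gzma in these cells was at 1.33, 0.654, 70.7, 25.4, 2.22 and 0.514 CPM, higher in both day 3 libraries, and in the CD31 libraries at 19.7, 0, 10.9, 104, 0 and 0, where day 3 and vehicle overlapped. Regulatory T cells with Gzmb made up 3.2% to 28.6% of the class (1.78% to 12.4% after thinning). Ccl5 in migratory dendritic cells was at 9737, 12370, 5286, 8004, 12010 and 9104 CPM, with both day 3 libraries lowest. Neither class was part of a fit, so these values are a description.

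Across leukocyte classes and CD45 libraries each member had its own set of most similar genes. Likeness is Pearson's r of log2(CPM + 1) over 90 points (15 classes in 6 libraries) among 9590 genes, a description in which points share libraries. Ifng was most like Fasl (0.93), Itga2 (0.90) and Sult2b1 (0.89). Nkg7 was most like Ctla2a (0.93), Crtam (0.90) and Gm33104 (0.89), and Prf1 like Gm43647 (0.88), Ctla2a (0.87) and Samd3 (0.86). Tbx21 was most like Gm33104 (0.88), Samd3 (0.87) and Klrc1 (0.86), and Gzma like Styk1 (0.86), Rab27b (0.84) and Klra9 (0.83). Gzmb was most like Itga2 (0.79), Camk2n1 (0.78) and Gzma (0.78), and Gzmk like Gm43647 (0.72), Gzma (0.71) and Prf1 (0.69). Ccl5 was most like Heatr9 (0.85), Pdgfb (0.81) and Serpinb9 (0.79). Between members r ranged from 0.46 for Gzmk and Ccl5 to 0.84 for Ifng and Prf1.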

How the data were processed

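Per the labels' protocols, nodes were digested, CD45 beads split the cells, both fractions were sorted by flow cytometry, and 10x Genomics 3′ libraries were made. The authors deposited UMI counts per gene and barcode with no cell calls. Per the submitters' processing notes, Cell Ranger 7.0.1 and build mm10 were used, while the file headers name Cell Ranger with another version number. Strand handling is not given in the sources used here.

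From these counts, barcodes with at least 1000 UMIs, 500 genes and no more than 10% of UMIs from mitochondria were kept. Doublets were removed by Scrublet score (scanpy 1.11.5) at 0.8% per 1000 barcodes, since the automatic cutoff found only 0, 1 and 3 in some libraries, which took out 4.78% to 9.31% of cells. In 10 libraries the removed cells had more UMIs than those kept. In CD31 day 3 Cre-positive (medians 2157 removed, 3434 kept) and CD31 vehicle Cre-negative (3702 and 4329) they had fewer, so the score did not pick out cells of high UMIs there. Cells were clustered on 2000 variable genes without the 8 members, with 30 components, 20 neighbours and Leiden resolution 1, and T and NK cells again at resolution 2. Names came from listed markers. That cells of mixed clusters were assigned one by one was decided after the clusters had been seen. Shares of cells were taken after thinning to 1000 UMIs, leaving out no cell, and also unthinned.

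Summed UMIs of each class and library were tested with edgeR 4.0.16 (R 4.3.3; TMM, filterByExpr, quasi-likelihood F test, Benjamini-Hochberg over all genes, threshold 0.05). SEs are the size of the log2 change divided by the root of F. On counts simulated for the CD8 day 3 comparison (11157 genes, 200 changed), 145 changes of 2-fold and 189 of 4-fold were recovered, with 1 and 8 false calls. Each gene was drawn on its own there, with no label effect, no change in cell make-up and no single cells of high counts. These figures do not cover calls in data that hold such differences. Alternatives were DESeq2 1.42.0, no low-count filter, all 12 libraries with the fraction as a term, at least 2000 UMIs, a receptor gate (Cd8a or Cd8b1, Cd4, at least 2 UMIs of Trdc or Tcrg genes, Ncr1 or Klrb1c), leaving out each library and, chosen after seeing the data, leaving out cells of mixed clusters, of the Mki67 cluster alone or the cell with the most Gzma or Ccl5, and summing both fractions of a combination. Members and gene lists were chosen with earlier results of these data known. The text names all members, giving fitted changes of those called or past a log2 of 1 and ranges of the others, examples of the list genes that were called, and the 3 genes most like each member among genes of at least 20 CPM in 1 class. Coordinates are from GENCODE M21. Some list genes and the list counts they enter are not reported here.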

Additional observations from a re-analysis of the deposited data

Results flagged for a closer look

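Day 3 or day 7 was compared with vehicle within each label for 64 pairs of a member, a class and a day, in the CD45 libraries. In 8 of them the log2 ratio of CPM went one way in the libraries labelled Cre-negative and the other way in those labelled Cre-positive, each beyond its counting interval. Each ratio compares 1 library with 1 library, the difference between labels was not tested, and the intervals cover counting error only. The same count was not made over other genes, so the share of all genes is not known. Genes with more UMIs have narrower intervals, and Ccl5 and Nkg7, with 142391 and 30848 leukocyte UMIs, had the most among members.

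Ccl5, the chemokine gene, accounted for 4 of the 8. In γδ T cells it was at -1.07 in Cre-negative and 1.39 in Cre-positive libraries at day 3, and at -0.35 and 1.66 at day 7. Both Cre-positive ratios use the vehicle library with 27 Ccl5 UMIs, the lowest of the 6, and the day 7 Cre-negative ratio includes 1 cell with 107 of 228 Ccl5 UMIs. In CD8 T cells at day 7 Ccl5 was at -0.11 and 0.59, and in NK cells at day 7 at -0.31 and 0.19. Nkg7, the granule membrane gene, accounted for 3. In CD8 T cells it was at -0.10 and 0.22 at day 3 and at -0.27 and 0.33 at day 7, and in γδ T cells it was at -0.50 and 0.58 at day 3. The remaining pair was Gzmb in CD4 T cells at day 3. It was at -3.04 in Cre-negative libraries, where 19 vehicle UMIs came from 2 cells, 17 of them from 1 cell, so that this ratio rests largely on that cell. In Cre-positive libraries vehicle had no UMI. With a floor of 3 counts in its place the ratio was 1.61, with a counting interval from 1.12 upward. The part that single cells and RNA from outside the cells play in these ratios was not tested. In barcodes of at most 100 UMIs, Ccl5 was at 432 to 918 CPM, Nkg7 at 89.4 to 178 and Gzmb at 3.51 to 28.4.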

How the results depend on the processing

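Calls rest on 1 library per combination. The 7 members called between NK and CD8 T cells kept their calls in each alternative run. Gzmb at day 3 in CD8 T cells kept its call except without the Mki67 cluster, and could not be tested without all mixed clusters. The next tally covers only members called or at a log2 of at least 1 in the main run of a comparison, class comparisons among them. There, 351 values kept their direction and side of the threshold, 27 lost the call, 23 gained it and 11 changed sign. Of the counts of called genes and members set beside their main run, 107 stayed near it and 93 moved away. Where no cause is named below, the cause was not tested. Changed signs: Gzmk in CD8 T cells at day 7 ran from -2.34 without vehicle Cre-negative to 0.19 without vehicle Cre-positive. Gzma between labels in CD8 T cells was 3.52 without day 3 Cre-positive, -0.33 without vehicle Cre-positive, -0.34 without vehicle Cre-negative, -0.29 without mixed clusters, -0.31 without the Mki67 cluster and -0.55 without the highest-Gzma cell. Gzmb in CD8 T cells at day 3 was -0.57 without the Mki67 cluster, and in γδ T cells at day 7 -0.12 with both fractions summed. Under the receptor gate, γδ against CD8 T cells, Ifng was 0.87, Ccl5 2.11 and Tbx21 0.51. Counts of called genes follow. With DESeq2 CD8 T cells had 778 at day 3, 1 at day 7 and 136 by label, CD4 599 at day 3 and 18 by label, γδ 0 at day 3 and 21 at day 7, and NK 3 by label. With no low-count filter CD8 T cells had 43 at day 7 and 638 by label, CD4 1676 at day 3 and 38 by label, γδ 31, 199 and 131 at day 3, day 7 and by label, and NK 17, 9 and 44. Over all 12 libraries CD8 T cells had 3090 at day 3 and 2 by label, CD4 3556 and 0, γδ 0, 0 and 0 in the 3 comparisons, and NK 0 by label. With both fractions summed CD8 T cells had 4 and CD4 0 by label, γδ 0, 0 and 2 in the 3 comparisons, and NK 1 at day 7 and 7 by label. Without mixed clusters CD8 T cells had 13 at day 3 and 119 by label, and CD4 2 and 37. Without the Mki67 cluster alone CD8 had 2 and 55, and CD4 0 and 3. With at least 2000 UMIs γδ T cells had 71 at day 7. Under the gate, γδ T cells had 32 and NK 2 by label, and γδ against CD8 had 1762. Leaving out 1 library gave, at day 3, day 7 and by label, 280 to 2082, 0 to 25 and 1 to 224 in CD8, 0 to 1811, 0 to 6 and 0 to 85 in CD4, 1 to 35, 8 to 172 and 9 to 240 in γδ, and 0 to 24, 0 to 10 and 0 to 9 in NK cells. Between classes it gave 1398 to 1766 (CD8 and CD4), 2493 to 3215 (γδ and CD8) and 2834 to 3141 (NK and CD8). No paired analysis was possible because no label gives a replicate number and a block by combination would hold the treatment and label themselves. The comparison of classes within libraries does have library as a block. With 59 to 126 γδ and 47 to 85 NK cells per library, members of few UMIs could not be tested there.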
